A study of Mus musculus with 6 samples.

Results

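The 10 immediate-early genes described here are Fos, Fosb, Jun, Junb, Egr1, Egr2, Egr3, Atf3, Btg2 and Ier2, a fixed list of 10 among the 31053 features counted in nuclei of the mouse hippocampus. Nuclei were stained for PU.1 (Spi1), the lineage-determining factor of myeloid cells, sorted, and sequenced with the 10x Genomics v3.1 chemistry at 9.5 months of age. There were 6 libraries, 1 for each genotype, and each pooled the hippocampi of 3 mice. P301S marks a mutant tau transgene, E4 human APOE4, EKO the loss of Apoe, and TREM2+ or TREM2- the presence or loss of Trem2, a microglial receptor. Values by library follow this order: P301S/E4 without Trem2 (P301S/E4/TREM2-), the same with it (P301S/E4/TREM2+), then E4 alone with Trem2 (E4/TREM2+), next P301S/EKO with it (P301S/EKO/TREM2+), the same without it (P301S/EKO/TREM2-), and last E4 alone without it (E4/TREM2-). No library lacked both P301S and E4. The promoter that drives the tau transgene is not given in the sources used here. Of 33335 deposited nuclei, 31738 had 200 or more detected genes and 5% or fewer mitochondrial unique molecular identifiers (UMIs, one per captured RNA molecule), and all values below are over these unless stated.

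Immediate-early genes are transcribed within minutes of a stimulus without new protein synthesis, when kinases act on factors already bound at their promoters, such as SRF with its ETS partners and CREB. Most of them encode transcription factors that then switch on a second set of genes. Fos and Fosb proteins pair with Jun proteins to form AP-1. In the brain these genes are best known as marks of neuronal activity, and in microglia they are known to respond both to inflammatory signals and to the handling of tissue.

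The promoters of the 5 genes called between P301S/E4 and E4 are shown because these genes carry the main result. Atf3 and Btg2 lie on chromosome 1 (191170296 to 191218039 and 134075170 to 134079120), Jun on chromosome 4 (95049034 to 95052222), Fos on chromosome 12 (85473890 to 85477273) and Fosb on chromosome 7 (19302696 to 19310051), in GRCm38 coordinates. Each sequence is the 250 bases before the RefSeq start (GRCm38.p6), read 5′ to 3′ along the gene, with capitals on the core of the CREB site, TGACG, on either strand.
Btg2 (chr1:134079156-134079405, minus strand): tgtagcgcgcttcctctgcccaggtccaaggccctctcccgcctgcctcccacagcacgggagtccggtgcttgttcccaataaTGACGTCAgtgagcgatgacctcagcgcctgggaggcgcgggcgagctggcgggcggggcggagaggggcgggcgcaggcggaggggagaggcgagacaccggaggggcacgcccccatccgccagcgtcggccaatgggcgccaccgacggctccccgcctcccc
Jun (chr4:95052223-95052472, minus strand): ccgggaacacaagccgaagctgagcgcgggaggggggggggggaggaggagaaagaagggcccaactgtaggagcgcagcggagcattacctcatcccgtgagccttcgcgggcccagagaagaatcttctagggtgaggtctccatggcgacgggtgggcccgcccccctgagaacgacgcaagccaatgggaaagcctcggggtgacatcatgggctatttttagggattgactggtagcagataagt
Fos (chr12:85473640-85473889, plus strand): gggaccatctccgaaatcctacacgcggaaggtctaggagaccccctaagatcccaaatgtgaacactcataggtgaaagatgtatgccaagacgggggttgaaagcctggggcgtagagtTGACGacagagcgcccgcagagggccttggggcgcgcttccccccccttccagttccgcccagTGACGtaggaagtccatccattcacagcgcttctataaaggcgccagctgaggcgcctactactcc
Fosb (chr7:19310046-19310295, minus strand): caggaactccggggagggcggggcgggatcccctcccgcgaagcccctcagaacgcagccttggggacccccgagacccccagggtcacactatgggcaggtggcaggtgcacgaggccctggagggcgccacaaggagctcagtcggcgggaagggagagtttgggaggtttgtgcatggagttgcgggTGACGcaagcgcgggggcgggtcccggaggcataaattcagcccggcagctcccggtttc
Atf3 (chr1:191183334-191183583, minus strand): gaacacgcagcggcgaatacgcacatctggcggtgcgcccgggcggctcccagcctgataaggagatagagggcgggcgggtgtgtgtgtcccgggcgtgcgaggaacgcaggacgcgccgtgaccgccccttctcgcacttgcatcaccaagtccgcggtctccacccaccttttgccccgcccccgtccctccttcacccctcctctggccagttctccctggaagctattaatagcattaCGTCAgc
RefSeq windows were matched for 7 of the 10 genes, with 5 alternative windows for Egr2. On both strands, TGACG lay in 17.8% of 32851 windows of this length and was found in the windows of Btg2, Fos, Fosb, Atf3 and Junb and in some of those of Egr2, but not in that of Jun. The full palindrome TGACGTCA, which contains TGACG, lay in 1.55% of windows and among these genes only in that of Btg2. GCGNGGGCG, the letters bound by EGR proteins, lay in 4.70% of windows and in those of Btg2 and Fosb. CArG, the box bound by SRF, lay in 1.47% and in windows of Egr2, and TGANTCA, the AP-1 letters, lay in 6.75% and in none of the 7 genes. A match is a description of letters, not evidence of binding. The Atf3 and Fosb windows reach 7 and 6 bases into an annotated exon of the gene. The Atf3 window precedes a start inside the annotated gene, whose upstream end is at base 191218039, and the sequence before that end is not shown.

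The deposited matrices gave between 3172124 and 8376816 UMIs per library in passing nuclei, with a median of 569 to 915 UMIs per nucleus. Mitochondrial genes took 0.468% to 1.19% of UMIs. Spi1, the gene of the sorting antigen, was at 74.7 to 105 CPM (UMIs of a gene scaled to the same total in every library) in every library. Trem2 was at 348 to 580 CPM in the TREM2- libraries and at 917 to 1114 CPM in the TREM2+ libraries, without overlap. Apoe was at 9.14 and 14.2 CPM in the EKO libraries and at 187 to 1184 CPM in the others. Of 33220 distinct barcodes 115 occurred in more than 1 library, 5 to 13 for each pair of libraries. Doublets were not called and remained among the nuclei. Since each genotype was 1 library, differences between mice, between pools and between library preparations cannot be told apart from the genotype.

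Together the 10 genes had 12833 UMIs, 0.0448% of all. Junb (3910 UMIs), Btg2 (3833) and Jun (2359) made up most of them, and Fosb (93) and Fos (179) the least. Over all libraries the order of levels was Junb 137, Btg2 134, Jun 82.4, Atf3 26.4, Egr1 24.3, Ier2 20.5, Egr3 7.54, Egr2 7.09, Fos 6.25 and Fosb 3.25 CPM. These levels were not divided by gene length, since a UMI marks 1 molecule whatever its length. The summed level was 319, 431, 609, 366, 434 and 688 CPM by library. Both E4 libraries were the highest and P301S/E4/TREM2- the lowest.

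**Figure D1:**
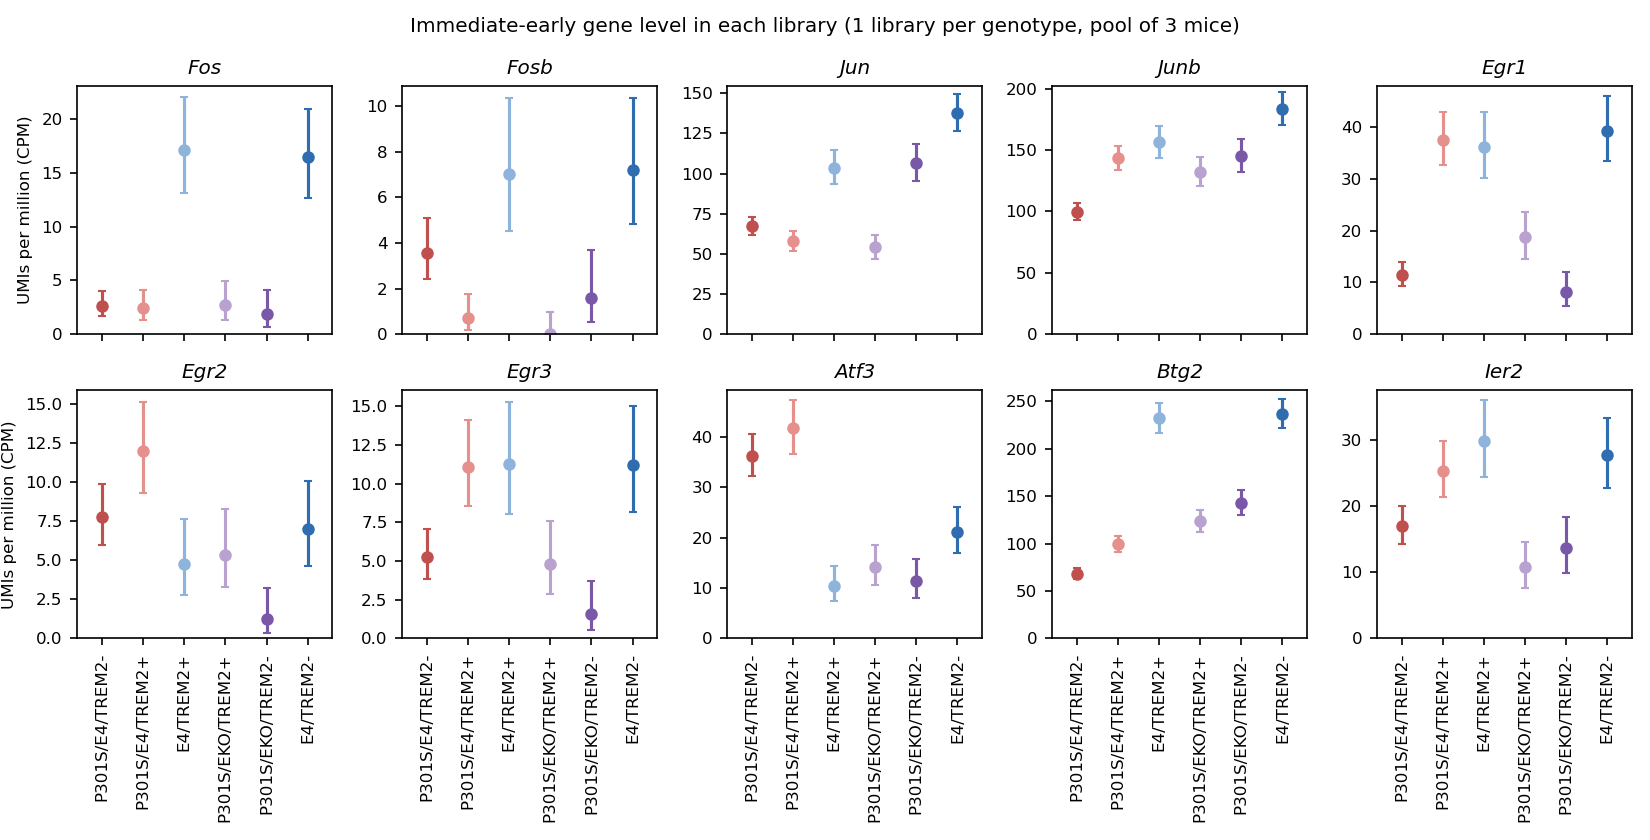
Level of each gene (CPM, vertical axis from 0) in the 6 libraries, with exact 95% Poisson intervals that cover counting error only. Btg2 and Fos are highest in both E4 libraries, whereas Atf3 is highest in both P301S/E4 libraries.

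The question of what the P301S tau background adds to APOE4 is addressed by P301S/E4 against E4. Between these backgrounds 4 of the 10 genes fell (Btg2, Fos, Jun and Fosb) and 1 rose (Atf3). Over all 12515 genes tested, 17% were called at an adjusted p of 0.05 or less (edgeR quasi-likelihood test with Benjamini-Hochberg adjustment), 9.24% as falling and 7.8% as rising. The median log2 fold change of the 10 genes was -0.75 against -0.00 over all genes. Library levels did not overlap between the 2 backgrounds for 9 of the 10 genes, and for 55.8% of all genes tested.

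Btg2, an antiproliferative gene that p53 and many growth signals induce, was at 67.9 and 99.2 CPM in the P301S/E4 libraries and at 232 and 237 CPM in the E4 libraries. The 2 backgrounds stood well apart. Between pairs of libraries the log2 ratio was -1.23 with Trem2 (95% counting interval -1.38 to -1.07) and -1.80 without it (-1.95 to -1.65). Btg2 fell by 1.55 on the log2 scale (SE 0.19, adjusted p = 0.000299 by edgeR's quasi-likelihood test, lower in both pairs of libraries). It was found in 7.31% and 8.23% of P301S/E4 nuclei (TREM2- and TREM2+), and in 13.3% and 16.3% of E4 nuclei (TREM2+ and TREM2-). With every nucleus thinned to 500 UMIs these shares were 3.68% and 4.91% against 10.5% and 11.02%. The EKO libraries lay between, at 124 and 142 CPM.

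Jun, the AP-1 subunit that also pairs with itself, was at 67.2 and 57.99 CPM in P301S/E4 and at 104 and 137 CPM in E4, and fell by 0.98 on the log2 scale (SE 0.19, adjusted p = 0.00441, edgeR). Its 2 backgrounds did not overlap either. Jun overlaps the antisense gene Junos on the opposite strand, and use of strand in counting is not given in the sources used here. Fos, the AP-1 subunit most used as an activity mark, was at 2.63 and 2.42 CPM in P301S/E4 and at 17.1 and 16.4 CPM in E4. It fell by 2.76 on the log2 scale (SE 0.33, adjusted p = 0.000294, edgeR), on 22 and 14 UMIs against 61 and 66.

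Fosb, a close relative of Fos, had 30 and 4 UMIs in P301S/E4/TREM2- and P301S/E4/TREM2+, 25 and 29 in the E4 libraries and 0 in P301S/EKO/TREM2+, where 3 counts would be 0.803 CPM. It fell by 1.89 on the log2 scale with an adjusted p of 0.0498 in edgeR (SE 0.59), just inside the threshold. The value depended on single libraries: it was -1.24 without P301S/E4/TREM2+ (adjusted p = 0.175), -1.01 without E4/TREM2+ (adjusted p = 0.421), -3.07 without P301S/E4/TREM2- (adjusted p = 0.0171) and -3.61 without E4/TREM2- (adjusted p = 0.0136), by edgeR. DESeq2 gave a larger value, -2.28, that missed the threshold (adjusted p = 0.0854).

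Atf3, a stress-induced factor of the ATF/CREB family that can pair with Jun, went the other way. It was at 36.3 and 41.7 CPM in P301S/E4 and at 10.4 and 21.2 CPM in E4, and rose by 1.25 on the log2 scale (SE 0.29, adjusted p = 0.0136, edgeR, higher in both pairs). With Trem2 the log2 ratio was 2.00 (1.501 to 2.54) and without it 0.78 (0.43 to 1.14), 95% counting intervals. Whether these ratios differ between TREM2 genotypes was not tested. The value was 0.68 without E4/TREM2+ (adjusted p = 0.170), 2.01 without E4/TREM2- (adjusted p = 0.000994) and 0.87 with nuclei thinned to 500 UMIs (adjusted p = 0.0935), all by edgeR.

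The other 5 genes did not pass the test. Junb, an AP-1 subunit, was at 99.8 and 143 CPM in P301S/E4 and at 156 and 183 CPM in E4, a difference of -0.54 on the log2 scale (edgeR, adjusted p = 0.0814). Egr1, a zinc-finger factor, was at 11.5 and 37.6 CPM against 36.3 and 39.3 CPM, a difference of -0.89 (edgeR, adjusted p = 0.123). For Egr1 only P301S/E4/TREM2- stood apart, and the 2 backgrounds overlapped. The Egr1 values here are over all nuclei, and its value within microglia-like clusters is given below. Ier2, a small nuclear protein, was at 17.0 and 25.3 CPM against 29.8 and 27.6 CPM (-0.51, adjusted p = 0.195, edgeR). The other EGR factors pointed different ways. Egr3 was at 5.25 and 11.1 CPM against 11.2 CPM in both E4 libraries (-0.60), and Egr2, known in myeloid and Schwann cells, at 7.76 and 11.9 CPM against 4.78 and 6.97 CPM (0.63). Junb and Egr1 were each called as falling in 4 of the 6 fits that left out 1 library. Without P301S/E4/TREM2+ or without E4/TREM2+ the value of Egr1 was -1.63 and -1.74 (adjusted p = 0.00692 and 0.00171), and without E4/TREM2- it was -0.05. In the fits without either EKO library Egr1 and Junb kept their size and passed (adjusted p of 0.00293 to 0.00978, edgeR), which changes the spread of the fit and not the libraries compared.

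**Figure D2:**
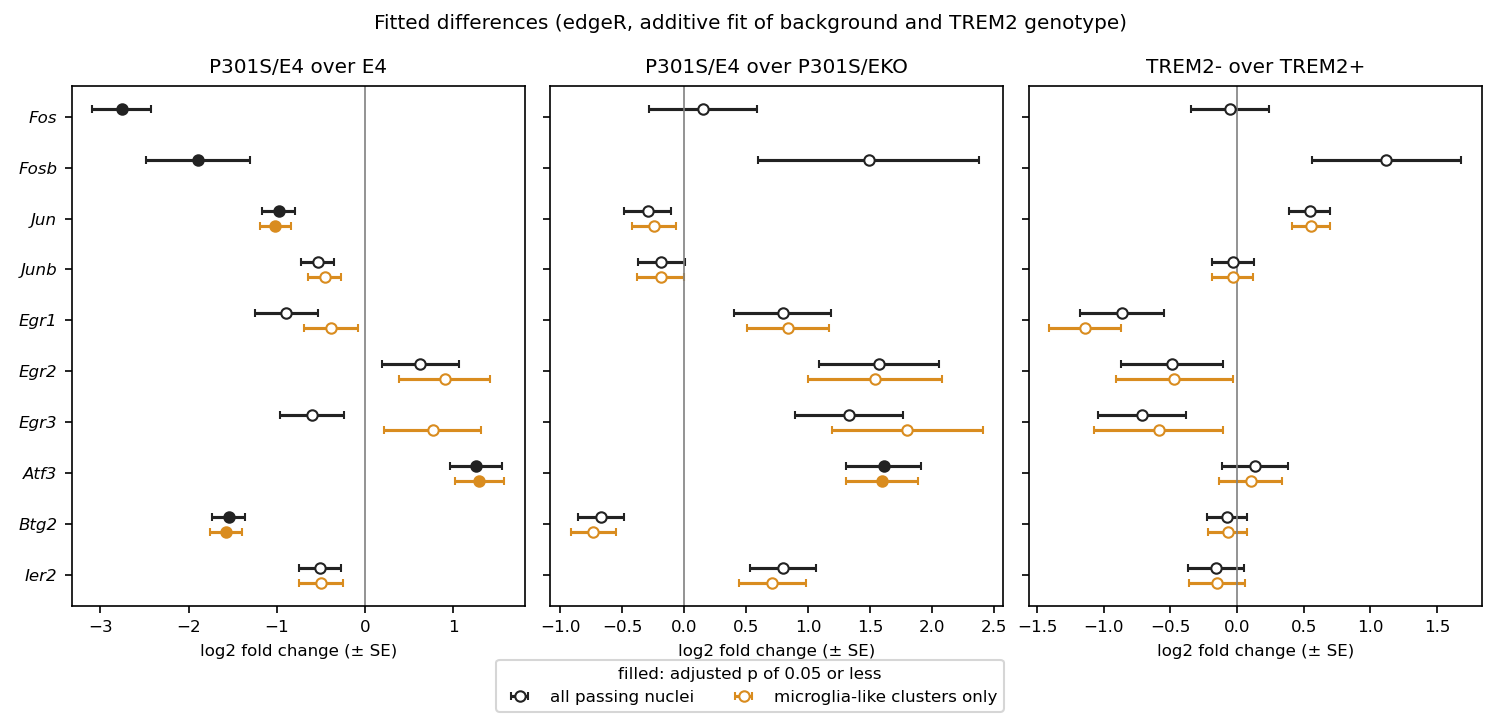
Log2 fold change with its standard error (horizontal axis) for each gene and contrast, over all passing nuclei and over microglia-like clusters, with filled points at an adjusted p of 0.05 or less. Btg2 and Jun lie below 0 and Atf3 above 0 between P301S/E4 and E4 in both sets of nuclei, and Fos and Fosb have a value in all nuclei only.

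Passing nuclei fell into 14 Leiden clusters, made without the 10 genes. By markers 11 clusters were microglia-like (29853 nuclei, 94.1%), cluster 6 was border-associated macrophage-like (1286 nuclei, led by Mrc1 and F13a1), cluster 13 neuron-like (126 nuclei) and cluster 11 unnamed, with markers of neurons, astrocytes and oligodendrocytes. Most microglia-like nuclei of E4 lay in clusters 0 and 1, and most of P301S/E4 in clusters 1 to 4 and 8. Cluster 4, led by Lpl and Spp1, held 22 of 23 microglia markers, as did macrophage-like cluster 6. Cluster 4 had the endothelial marker Flt1 among its 10 leading genes, so values are also given without that cluster. Among the microglia-like clusters, only cluster 0 had a microglia marker, P2ry12, among its 10 leading genes.

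Fos and Fosb UMIs lay mainly outside the microglia-like clusters in the E4 libraries. For Fos that share was 82.0% in E4/TREM2+ and 95.5% in E4/TREM2-, and for Fosb 92.0% and 89.7%. In the P301S/E4 libraries it was 27.3% and 28.6% for Fos and 16.7% and 0% for Fosb. Cluster 6 held 32.4% and cluster 13 held 30.2% of all Fos UMIs. Within cluster 6, Fos was at 114 and 111 CPM in E4 (22 and 33 UMIs) and at 4.41 and 5.06 CPM in P301S/E4 (2 and 1 UMIs).

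Neuron-like nuclei were 0.511% and 1.26% of the E4 libraries and 0.228% and 0.0808% of the P301S/E4 libraries. The 10 neuron markers summed to 1317 and 2523 CPM in E4 against 748 and 619 CPM in P301S/E4, and none was at 0 over all libraries. The 8 border-associated macrophage markers summed to 920 and 1012 CPM against 964 and 661 CPM. The part of neuron-like nuclei in the Fos and Fosb result was not tested. Fewer cells of a type and less RNA per cell cannot be told apart in such sums. Within microglia-like clusters Fos and Fosb had too few UMIs to pass the expression filter and have no test there, and 3 of the 4 ratios there lay above 0. Fosb was at 3.22 and 0.735 CPM in P301S/E4 (25 and 4 UMIs) and at 0.657 and 0.897 CPM in E4 (2 and 3 UMIs, TREM2+ and TREM2-). Its log2 ratio of P301S/E4 over E4 was 0.16 with Trem2 (95% counting interval -2.64 to 3.63) and 1.84 without it (0.13 to 4.21). Of the 25 UMIs in P301S/E4/TREM2-, 8 lay in a single nucleus of cluster 7, which the counting interval does not allow for. Fos was at 2.06 and 1.84 CPM (16 and 10 UMIs) against 3.61 and 0.897 CPM (11 and 3 UMIs), with ratios of -0.97 with Trem2 (-2.37 to 0.40) and 1.20 without it (-0.61 to 3.62). The fall of both genes was fitted over all nuclei, a sorted mixture. Within microglia-like nuclei it was not tested, so no fall there can be read from that fit.

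**Figure D3:**
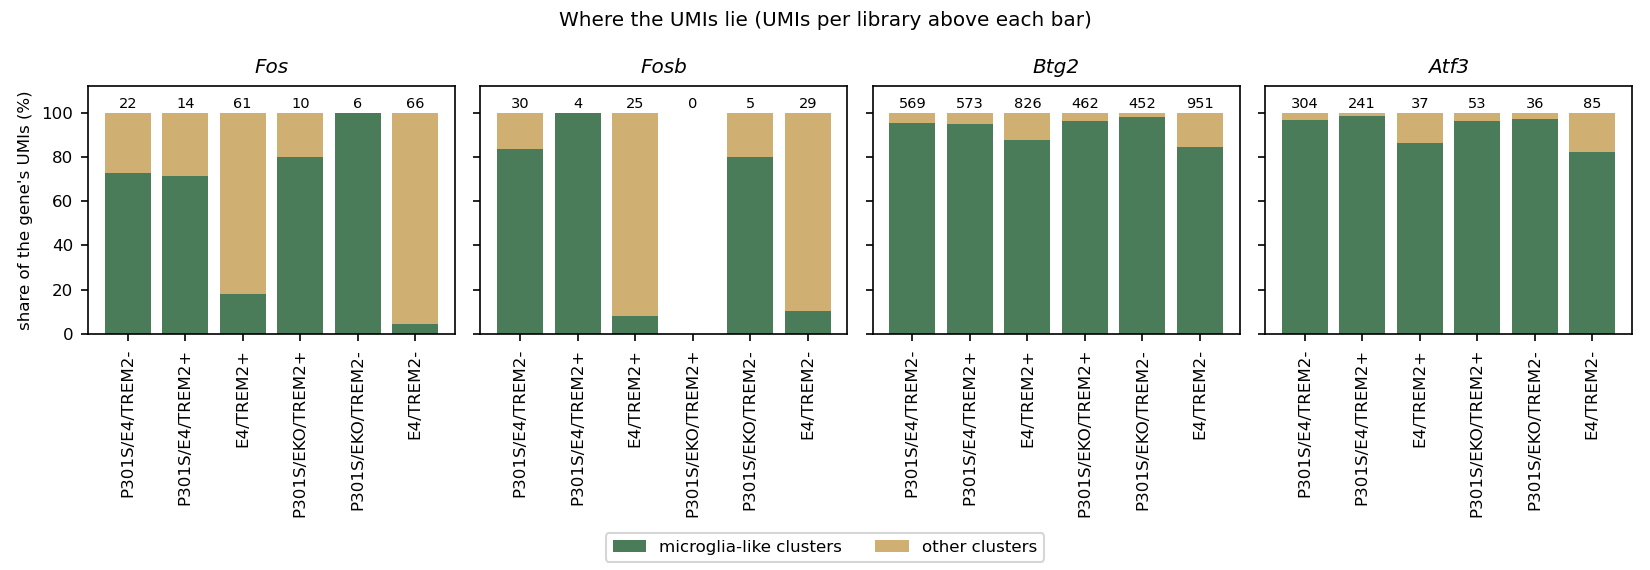
Share of each gene's UMIs (vertical axis, percent) in microglia-like and in other clusters by library, with the UMI count above each bar. Fos and Fosb in the E4 libraries lie mostly in other clusters, and Btg2 and Atf3 lie mostly in microglia-like clusters in every library.

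Btg2, Jun and Atf3 were called within microglia-like clusters too, where 15.6% of 11831 genes were called. The log2 difference was -1.57 for Btg2 (adjusted p = 8.09e-05), -1.02 for Jun (adjusted p = 0.00169) and 1.30 for Atf3 (adjusted p = 0.00766), by edgeR. Without cluster 4 the values were -1.57, -0.99 and 1.24. Egr3 was 0.77 there against -0.60 over all nuclei, neither called. In the same clusters Atf3 was also the 1 gene called against EKO (2.92% of all genes called), and 0 genes were called with loss of Trem2 (0.203%).

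Within single clusters holding 50 or more nuclei of both libraries, Btg2 was lower in P301S/E4 in 16 of 16 ratios over 9 clusters, and 15 of the 95% counting intervals lay below 0. The ratios ran from -2.68 to -0.75 on the log2 scale. Jun was lower in 16 of 16 ratios, 6 with the interval below 0. Atf3 was higher in 6 and lower in 5 of 11 ratios, with the interval above 0 in 3 and below 0 in 1. For Atf3, 5 further pairs had a library with 0 UMIs and gave no ratio. In cluster 7 the level of Atf3 without Trem2 was 286 CPM for P301S/E4 against 98.3 CPM for E4. Of the Atf3 UMIs behind the value of 286 CPM, 27 lay in a single nucleus of 911 UMIs. With Trem2 present the level of Atf3 in cluster 7 was 188 against 11.5 CPM, where the last value rests on 2 UMIs. These are ratios of 2 libraries with no replicate, and clusters of a library are not replicates.

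Cluster 7, led by the chemokine genes Ccl3 and Ccl4 and by Tnf, had the highest summed level of the microglia-like clusters, 1406 CPM against 290 to 523 CPM in the other 10. It was 2.40% to 5.09% of each library. Egr1, Atf3 and Egr3 stood among its 10 leading genes although they were not used to build the clusters. Egr1 reached 157 CPM there, Ier2 93.8 CPM, Btg2 281 CPM and Jun 235 CPM. By library the summed level in cluster 7 was 1483, 1656, 1290, 825, 1399 and 1419 CPM. Atf3 was also high in cluster 8, led by Gpnmb (75.1 CPM), and in cluster 4 (44.6 CPM). Cluster 8 held 730 and 443 nuclei of the P301S/E4 libraries and 7 and 2 of the E4 libraries.

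**Figure D4:**
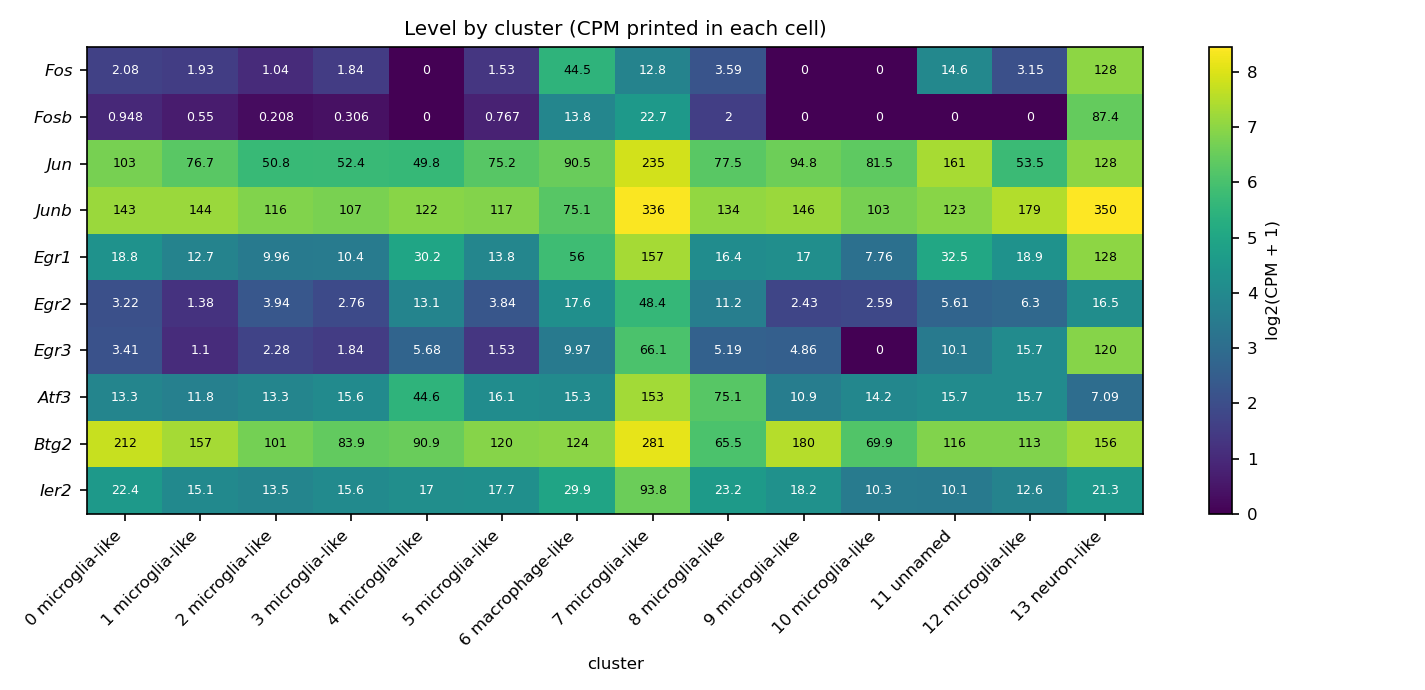
Level of each gene (CPM printed in the cells, colour on a log2(CPM + 1) scale) in the 14 clusters over all libraries. Cluster 7 is the highest microglia-like cluster for all 10 genes, and Fos is highest in cluster 13, at 128 CPM.

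What human APOE4 adds to the P301S background, against loss of Apoe, is addressed by P301S/E4 against P301S/EKO. This comparison shares the P301S/E4 libraries with the one above. Of the 10 genes 1 rose, Atf3, and 0 fell, where 3.67% of all genes were called, 1.8% as rising and 1.87% as falling. At an unadjusted p under 0.05 there were 5 of the 10, and 18.3% of all genes. Atf3 was at 36.3 and 41.7 CPM in P301S/E4 and at 11.3 and 14.2 CPM in P301S/EKO, without overlap, and rose by 1.61 on the log2 scale (SE 0.30, edgeR, adjusted p = 0.0195). Atf3 was called in all 10 alternative fits and in all 6 fits that left out a library. Egr2 (1.57, adjusted p = 0.110), Egr3 (1.33, adjusted p = 0.131), Ier2 (0.80, adjusted p = 0.138) and Btg2 (-0.67, adjusted p = 0.0792) did not pass edgeR's test. Egr1 had 0.80 (adjusted p = 0.319, edgeR). These values moved with single libraries. Egr1 was 1.38 without P301S/E4/TREM2- (adjusted p = 0.00732) and -0.09 without P301S/E4/TREM2+ (adjusted p = 0.898), by edgeR. Egr2 ran from 0.97 without P301S/EKO/TREM2- to 2.82 without P301S/EKO/TREM2+ and was called in 3 of 6 such fits. Without P301S/E4/TREM2-, Egr3 (1.63, adjusted p = 0.0432) and Ier2 (1.15, adjusted p = 0.0193) passed edgeR's test, and without P301S/E4/TREM2+ they were 0.89 and 0.44. Btg2 ran from -1.04 without P301S/E4/TREM2+ to -0.31 without P301S/E4/TREM2-, and was called in 2 of 6. Library levels did not overlap for 5 of the 10 genes, and for 47% of all genes.

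Loss of Trem2 was compared over the 3 backgrounds. None of the 10 genes was called by edgeR, and 14 of all 12515 genes were, 0.112% (0.032% rose and 0.0799% fell). Library levels overlapped between TREM2- and TREM2+ for all 10, and did not for 6.54% of all genes. At an unadjusted p under 0.05 there were 2, Jun and Egr1, and 6.22% of all genes. DESeq2 called none of the 10 either. Jun was higher in TREM2- in 3 of 3 backgrounds, by 0.54 on the log2 scale (SE 0.15, edgeR, adjusted p = 0.394). It was called with no expression filter (adjusted p = 0.0123, edgeR). Jun was 0.72 without P301S/E4/TREM2- and 0.71 without P301S/E4/TREM2+, and was 0.31 without P301S/EKO/TREM2+ and 0.32 without P301S/EKO/TREM2- (edgeR). Egr1 was at 11.5 against 37.6 CPM in P301S/E4, 8.20 against 18.7 CPM in P301S/EKO and 39.3 against 36.3 CPM in E4, TREM2- against TREM2+. Its fitted value was -0.86 (SE 0.31, adjusted p = 0.641, edgeR). Leaving out either E4 library gave -1.52, and leaving out either P301S/E4 library gave -0.27 (edgeR). The 2 fits of such a pair are not separate support. The library left in that background carries no Trem2 comparison, so both rest on the same other libraries. The sum of the 10 genes moved in different directions by background, with log2 ratios of -0.44 in P301S/E4, 0.25 in P301S/EKO and 0.18 in E4.

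UMIs of these genes sat both in many nuclei and in a few rich ones. At least 1 UMI was found in 26.0% of nuclei, and 17.5% after thinning to 500 UMIs. By library the unthinned share was 23.9%, 25.9%, 26.9%, 25.7%, 21.0% and 33.6%. The 817 nuclei with 3 or more UMIs, 2.57% of all, held 30.4% of them, and 735 of these nuclei held 2 or more of the genes. Their median depth was 1051 UMIs against 704 in nuclei with none. The top 1% of nuclei by UMIs of the 10 genes held 18.2% of those UMIs, against 8.16% of all UMIs in the top 1% by depth. For a list of 22 upstream regulators and corepressors, ranked by their own UMIs, it was 8.95%. Nuclei with 3 or more regulator UMIs held 48.9% of them. The 10 genes had 12833 UMIs and the regulators 42643. Such shares are not like measures, because sparse counts alone raise the share of the top nuclei.

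The genes differed in how unevenly they were spread. Over microglia-like nuclei thinned to 500 UMIs, the variance-to-mean ratio was 2.11 for Atf3, 1.37 for Jun and 1.07 for Btg2. It was 1.44 for Egr1 and, on 75 UMIs, 1.66 for Egr3. Over 6541 other genes the median was 1.04 and the 95th percentile 1.10, all with 300 or more thinned UMIs. Of the 4 genes of the list with as many, Atf3, Jun and Junb (1.13) lay above that percentile and Btg2 below it. The others had 14 (Fosb) to 285 (Egr1) thinned UMIs, where a few nuclei set the ratio, and are not read against it. The high values of Atf3 and Jun came mainly from a single library. Over all thinned nuclei of each library, the ratio of Atf3 was 3.98 in P301S/E4/TREM2- and 0.995 to 1.51 in the others. That of Jun was 2.27 in P301S/E4/TREM2- and 1.09 to 1.18 in the others. For Junb it was 1.08 in P301S/E4/TREM2- and 1.11 to 1.20 in the others. A few nuclei weighed heavily. In P301S/E4/TREM2- a nucleus of cluster 7 held 27 UMIs of Atf3 and 21 of Jun, and a nucleus of cluster 8 held 15 and 17. A single nucleus gave 8 of the 93 UMIs of Fosb, and another 12 of the 216 UMIs of Egr3.

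**Figure D5:**
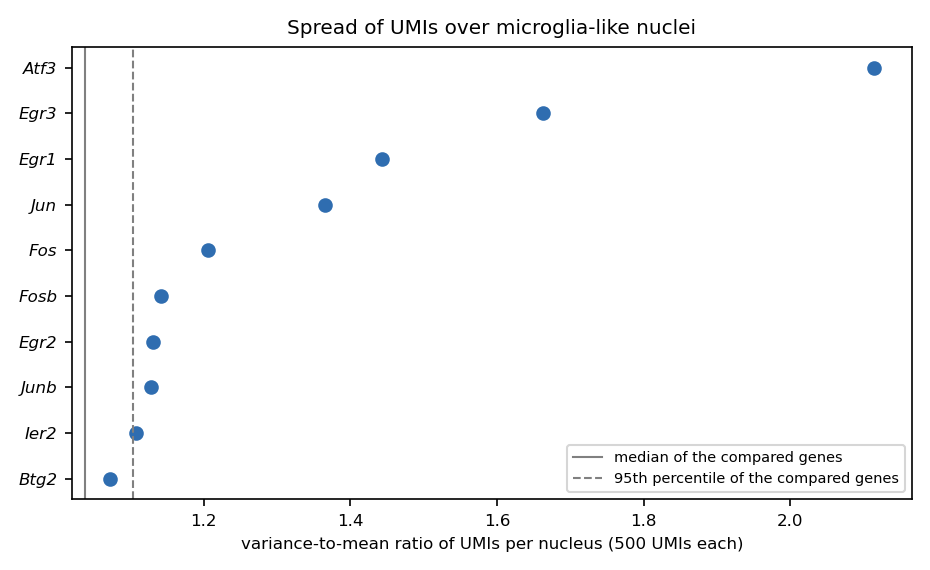
Variance-to-mean ratio of UMIs per nucleus (horizontal axis) over microglia-like nuclei thinned to 500 UMIs, with the median and 95th percentile of 6541 other genes with 300 or more thinned UMIs as lines, a number that 4 of the 10 genes reach. With the 6 libraries pooled, Atf3 lies farthest to the right at 2.11, and Btg2 lies left of the 95th percentile at 1.07.

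Where pairs of the genes had 5 or more nuclei from the product of their shares in microglia-like nuclei, 11 of 12 pairs were found together more often than that product, by up to 3.07 times. The product was taken within each library, but it pools clusters, which alone can raise the number found together. No test was made. In microglia-like nuclei with 3 or more thinned UMIs of the 10 genes, the genes most raised over nuclei with none were Ccl3 (17.4 times), Ccl4 (14.0), Rgs1 (9.66), Tnf (9.61), Nfkbid (8.50) and Zfp36 (6.94). Of these Ccl3, Ccl4 and Tnf encode secreted signals of activated myeloid cells. The comparison rests on 204 against 21667 nuclei.

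Lists of related genes were counted between P301S/E4 and E4. Over all genes 7.8% rose and 9.24% fell, 17% in all. Among 39 tested of 47 other early-response genes, 7 rose and 10 fell. Bhlhe40, a transcriptional repressor, rose by 3.55 on the log2 scale (adjusted p = 0.000106, edgeR), and Gadd45b rose by 2.22. Arc, a neuronal activity gene, fell by 4.26, Zfp36, which destabilises cytokine mRNAs, fell by 0.93, and Rhob fell by 0.77. The next 3 lists had a share of calls near or below that of all genes. Of 22 upstream regulators and corepressors 2 rose and 0 fell, the EGR corepressors Nab2 (1.29) and Nab1 (0.90). Of 12 AP-1 and bZIP partners, Nfe2l2 (0.70) and Batf2 (1.51) rose and 0 fell. Of 11 heat-shock genes, Hspa5 fell by 0.86, Hsp90ab1 fell by 0.47 and 0 rose.

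Of 13 cytokine and chemokine genes reported in microglia activated during isolation, 7 rose and 1 fell, beside 7.8% and 9.24% of all genes. Cd83 (1.99), Cxcl10 (4.45), Ccl12 (0.89), Tnf (1.33) and Ccrl2 (1.30) rose, and Il1b fell by 0.90. That list and the 10 genes therefore did not move one way together between these backgrounds. Whether handling differed between the libraries was not tested, and the labels used here give no time or batch of preparation. In the contrast with EKO, 2 of the 39 early-response genes rose, Bhlhe40 (1.72) and Gadd45b (1.76), where 1.8% of all genes rose. The other lists had 0 calls there, and all 5 lists had 0 calls with loss of Trem2, by edgeR.

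In the authors' deposited table of TERM against homeostatic nuclei, Atf3 had a log fold change of 3.06 with an adjusted p of 3.93e-21, and the adjusted p of the other 9 genes was 0.539 or above. In the authors' deposited marker table, Egr1, Junb, Btg2, Jun and Ier2 were among the 50 markers of the cluster named Inflam. The base of these log values is not given in the sources used here. Across the 6 libraries, the genes whose log2 level was most like the summed level of the 10 were Emc4 (Pearson r 0.994), Afdn (0.975), Ier5 (0.973), Manf (0.973), Rabac1 (0.971) and Rbfox3 (0.970), of 9160 genes compared, over 6 points that differ in depth.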

How the data were processed

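The deposited counts are raw UMIs per gene and nucleus, which the authors made with Cell Ranger 3.0.1, per the file headers, on mm10, per the submitters' processing notes. The authors' deposited tables hold log fold changes, used as a score, and p-values computed by the authors. The 10 genes and the related lists were chosen with earlier results of these data known.

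UMIs of passing nuclei were summed per library and fitted in edgeR 4.0.16 (R 4.3.3) with background and TREM2 genotype as terms, TMM factors and filterByExpr. The fit left 2 residual degrees of freedom and covered 12515 genes, with Benjamini-Hochberg adjustment over all of them. The spread it uses mixes pools with any interaction of background and TREM2. Levels have exact Poisson intervals and pair ratios exact conditional binomial ones, at 95%, covering counting error only. Thinning drew 500 UMIs per nucleus without replacement, which left out shallower nuclei of E4/TREM2+ (1488), P301S/EKO/TREM2- (1827) and E4/TREM2- (417). Clusters came from scanpy 1.11.5 and leidenalg 0.10.2 (2000 variable genes, 30 components, 15 neighbours, resolution 1). Microglia-like clusters held 12 or more of 23 markers, each at 50% or more of its median over clusters. They also met no rule for another cell class by markers or leading genes, at up to 2 times the median depth of their libraries. The rule was set after clusters had been seen. Clusters 6 and 11 also held 22 and 23 of the markers and were set apart by markers of other classes. All 10 genes are named; from the lists, called genes, at most 6 per list and contrast by p. Alternatives were DESeq2 1.42.0, other filters, scalings and sets of nuclei, and leaving out each library. The fit was tested on simulated data.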

Additional observations from a re-analysis of the deposited data

Results flagged for a closer look

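Ratios between libraries went opposite ways between genotypes, with both counting intervals off 0, in 4 cases. The difference itself was not tested, since each ratio compares 2 libraries. Between TREM2- and TREM2+, the log2 ratio of Junb was 0.23 in E4 and -0.52 in P301S/E4. In nuclei with 500 or more genes the E4 value was 0.14 with an interval across 0 (-0.09 to 0.38). Btg2 had 0.21 in P301S/EKO and -0.55 in P301S/E4. In nuclei with 500 or more genes the P301S/EKO value of Btg2 was -0.08 (-0.37 to 0.20), so the opposite direction was lost. The sum of the 10 genes had 0.25 in P301S/EKO and -0.44 in P301S/E4, and 0.0614 in P301S/EKO in nuclei with 500 or more genes. Between P301S/E4 and P301S/EKO the sum had 0.24 with Trem2 and -0.44 without it. P301S/E4/TREM2- enters 1 side of each of the 4, and it had the deepest nuclei.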

How the results depend on the processing

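No paired analysis was possible because each genotype has 1 library. Between P301S/E4 and E4 the count of called genes among the 10 was 5. It was 3 in microglia-like clusters at either resolution (the one at 0.5 was chosen after seeing the data) and 2 with nuclei thinned to 500 UMIs, where Fos and Fosb fell below the expression filter and were not tested, and 5 to 7 when a library was left out. Btg2 and Jun were called in all 10 alternatives and all 6 fits without a library. Against EKO the count was 1; it was 2 with no composition factor and in microglia-like clusters at resolution 0.5, 6 with no filter, and 1 to 4 without a library. For Trem2 it was 0; it was 2 with no filter, and 0 to 1 without a library. Over all genes, Trem2 gave 14 calls, 226 with no filter, 24 in microglia-like clusters and 11 to 114 without a library. P301S/E4 against E4 gave 2133, 1347 with DESeq2 and 1083 to 2788 without a library. EKO gave 459, 1258 with no filter, 273 thinned and 282 to 1300 without a library. The summed log2 ratio for Trem2 loss in P301S/EKO and E4 was 0.0614 and 0.0304 in nuclei with 500 or more genes. Between P301S/E4 and E4 with Trem2 it was -0.36 in microglia-like clusters and -0.65 with 500 or more genes, and without Trem2 it was -1.01 in microglia-like clusters. Against EKO without Trem2 it was -0.27 with 500 or more genes. No gene called in the main comparison changed direction in a fit that tested it. Untested ratios of Fosb (0.16 and 1.84) and of Fos without Trem2 (1.20) lay above 0 within microglia-like clusters. Apart from the fits that tested fewer genes, the cause was not tested. Depth limits Fos, Fosb, Egr2 and Egr3, with 93 to 216 UMIs each.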
